A study of Homo sapiens with 6 samples.

Results

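The oncofetal genes of hepatocellular carcinoma (HCC) studied here are 10 genes, chosen by name: GPC3, IGF2, H19, DLK1, LIN28B, IGF2BP1, IGF2BP2, IGF2BP3, SPINK1 and HMGA2. Of these, 9 were found among the 16720 named rows of the count table, and H19 was not analysed here. After the filter on low counts, 7 of the 9 were compared among 12839 genes, while DLK1 and LIN28B had too few counts. The labels give the cells as Hep3B, an established line from a human hepatocellular carcinoma. Of 6 hepatocyte markers, TTR (6 to 21 counts) and APOA1 (14 to 49) were low in all libraries. ALB (293 to 793 counts), APOB (253 to 1586), FGB (54 to 850) and SERPINA1 (166 to 266) were detected in all libraries. Of 4 biliary markers, the keratin KRT19 (8956 to 23604 counts) and SPP1 (1424 to 2643) were abundant. KRT7 (31 to 390) and SOX9 (67 to 141) were lower. The levels below are those of the libraries labelled Hep3B, whose identity was not tested. The RNA libraries were 3 from cells with a control guide (sgControl, labelled WT) and 3 from RFX6-knockout cells (sgRFX6), all labelled Hep3B. RFX6 is a transcription factor of the regulatory factor X family, and the comparison asks how the transcriptome differs without it. Per the study's methods, guides were delivered with Cas9 by the lentiCRISPRv2 vector, and infected cells were selected with puromycin. Clones grown from single cells were then picked, so features of a clone and loss of RFX6 cannot be told apart. All 3 knockout columns name the same guide, sg3, so no other RFX6 guide is represented. The control columns are named cas and name no guide, and they were taken as sgControl. The numbered samples are not stated to come from separate cultures, so p-values measure the spread between these libraries only.

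As a class, oncofetal genes are active in the fetal liver, are mostly silent in the adult hepatocyte, and are often switched on again in HCC. Single members can differ from this, and adult liver was not measured here. The genes of the set fall into a few functional groups. LIN28B binds the precursors of the let-7 microRNAs and stops their maturation. The mature let-7 family represses mRNAs that carry a match to its seed, including those of HMGA2, a chromatin architectural protein, and of the IGF2BP family of RNA-binding proteins. The IGF2BP proteins bind many transcripts, IGF2 and H19 among them, and can read N6-methyladenosine (m6A) marks. IGF2, H19 and DLK1 are imprinted genes of fetal growth, GPC3 is a heparan sulfate proteoglycan of the cell surface, and SPINK1 is a secreted inhibitor of trypsin.

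The let-7 seed separates these genes by sequence, so a few sequences are shown before the levels. The RefSeq miRNA table held 11 mature names of the let-7 family with the same seed, bases 2 to 8, which is in capitals in these 3 members (5′ to 3′):
hsa-let-7a-5p: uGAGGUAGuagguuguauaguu
hsa-let-7g-5p: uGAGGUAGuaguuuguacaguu
hsa-miR-98-5p: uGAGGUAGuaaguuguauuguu
The reverse complement of the seed, CTACCTC, was searched on the sense strand in the 3′ untranslated region (3′UTR) of the principal transcript of each gene. It occurred 14 times in 5 of the 9 genes. LIN28B, IGF2BP1 and HMGA2 held 4 matches each, IGF2BP2 and IGF2BP3 held 1 each, and the 3′UTRs of GPC3, IGF2, DLK1 and SPINK1 held none. Of 12100 tested genes with an annotated 3′UTR, 9.76% held a match. Among genes with a 3′UTR of like length, 4 or more matches occurred in 0.146% for HMGA2, 0.215% for LIN28B and 0.769% for IGF2BP1. The 4 matches of HMGA2 and the first match of each of the other 4 genes are given with the flanking bases, the match being in capitals (GRCh38, in the direction of the transcript):
HMGA2 site 1, chr12:65963298-65963327, plus strand: gccaacgttcgatttCTACCTCagcagcag
HMGA2 site 2, chr12:65964533-65964562, plus strand: ccccactactcaataCTACCTCtgaatgtt
HMGA2 site 3, chr12:65964945-65964974, plus strand: ttgacttgcaaagacCTACCTCcagacttc
HMGA2 site 4, chr12:65965798-65965827, plus strand: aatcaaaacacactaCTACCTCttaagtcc
LIN28B site 1, chr6:105078812-105078841, plus strand: acccggttgcaaagtCTACCTCatgcaagt
IGF2BP1 site 1, chr17:49051061-49051090, plus strand: tgtgtgcgaagtaaaCTACCTCaaggtatg
IGF2BP2 site 1, chr3:185644213-185644242, minus strand: aacacacagaagaagCTACCTCaggtgttt
IGF2BP3 site 1, chr7:23311788-23311817, minus strand: tgcatttttactcaaCTACCTCaggtattc
A match is a run of letters and was not shown to be a binding site, and the let-7 microRNAs themselves were not measured here. Other forms of a seed match and other transcripts of a gene were not searched, so a gene without a match may still hold a site.

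The libraries held between 16730374 and 25070770 counts on named genes. At these depths 3 counts equal 0.121 to 0.188 CPM (counts scaled to library size with TMM factors), and values at or below this are treated as the floor. Libraries of the same group differed by more than sampling noise, their chi-square divided by its degrees of freedom being 16.2 to 117. The third sgRFX6 library stood apart by base composition, since its log2 difference from the other sgRFX6 libraries had Spearman correlations of -0.84 and -0.83 with GC content over 12207 genes, a description across genes. Among the controls, the second and the third library had correlations of 0.50 and 0.54 with GC content when set against the first. RFX6 itself had 117, 144 and 170 counts in the sgControl libraries against 69, 59 and 77 in the sgRFX6 libraries. All sgRFX6 values were below all sgControl values, with 3.54 ± 0.146 CPM against 6.27 ± 0.931 CPM (SD, n = 3 each). The log2 fold change was -0.82 (SE 0.26, 95% interval -1.41 to -0.24, unadjusted p = 0.0110, edgeR). After adjustment it did not pass with edgeR (adjusted p = 0.142) and passed with limma-voom (adjusted p = 0.00274). The paper reports that it checked its RFX6 knockouts by western blotting and real-time PCR. RFX6 protein was not measured here, and these RNA counts do not measure the efficiency of the knockout.

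None of the 7 tested oncofetal genes passed the threshold between sgRFX6 and sgControl. With the edgeR quasi-likelihood test, 480 of the 12839 genes (3.74%) had an adjusted p under 0.05, of which 247 (1.92%) were higher in sgRFX6 and 233 (1.81%) lower, and 0 of the 7 were among them. The balance of these calls depended on single libraries, from 117 higher and 189 lower without the first sgControl library to 432 and 286 without the third sgRFX6 library. At an unadjusted p under 0.05 the count over all genes was 2000 (15.6%), again with 0 of the 7. DESeq2 called 6.44% of its 14108 genes and 0 of the 9 measured oncofetal genes. Limma-voom with sample quality weights called 31.1% of all genes and 1 of the 7, HMGA2. The log2 fold changes (sgRFX6 minus sgControl) were positive for 3 genes and negative for 4, with a median of -0.08, beside 0.02 over all tested genes. The groups did not overlap for 1 of the 7, while this held for 23.1% of all tested genes.

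**Figure D1:**
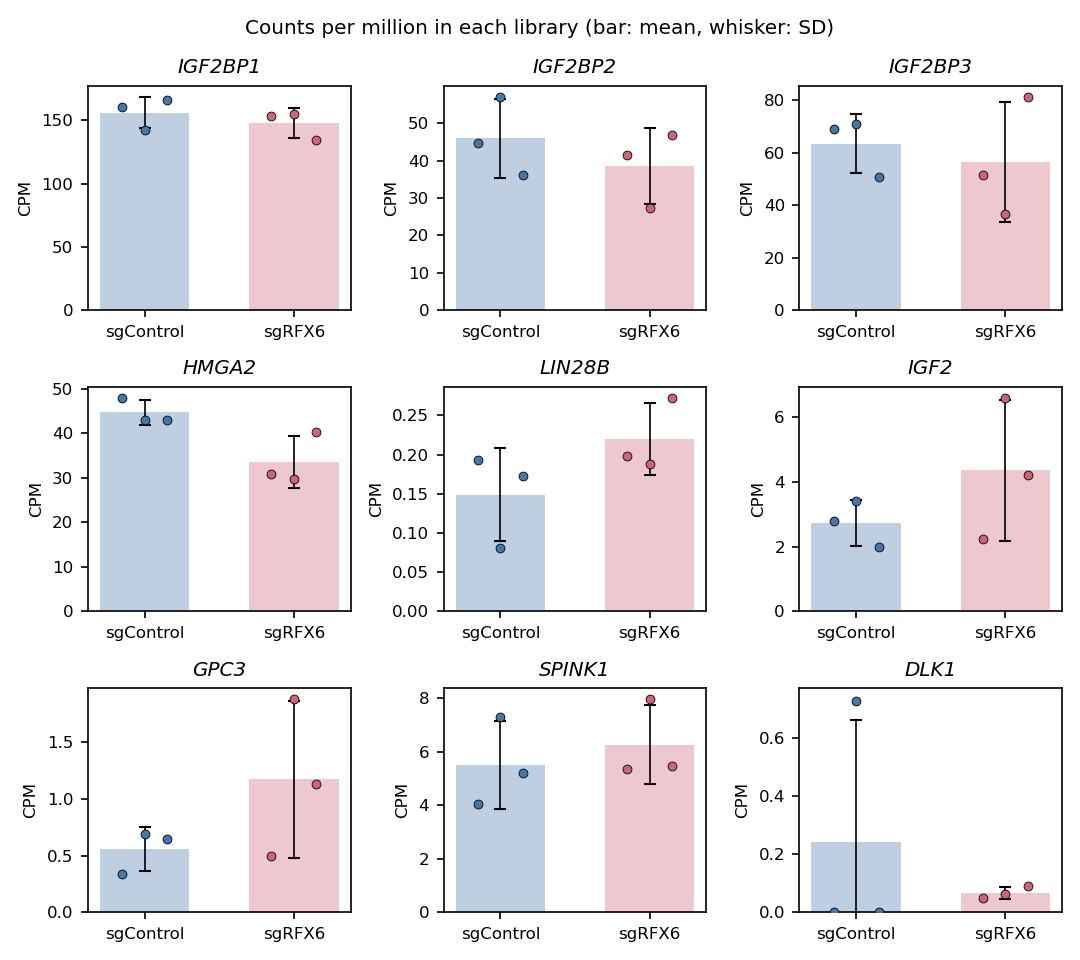
CPM of the 9 measured oncofetal genes in each library (points), with the mean (bar) and SD (whisker) of 3 sgControl and 3 sgRFX6 libraries on linear axes that start at 0. HMGA2 is the gene whose points do not overlap between groups, and all values of LIN28B and all but 1 of DLK1 lie under 0.3 CPM.

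The level of these genes spanned several orders of magnitude. Scaled to the length of the principal transcript (FPKM, counts per kilobase of transcript, scaled to library size as CPM), IGF2BP1 was highest in sgControl at 18.9 FPKM, followed by IGF2BP3 at 14.9, IGF2BP2 at 12.4, SPINK1 at 10.2 and HMGA2 at 9.99 FPKM. The ranges of IGF2BP1 and IGF2BP3 did not overlap in sgControl, whereas IGF2BP3, IGF2BP2, SPINK1 and HMGA2 overlapped with their neighbours in this order. A gap followed, below which the mean FPKM was 0.488 for IGF2 and 0.217 for GPC3. DLK1, at 0.0514, and LIN28B, at 0.0270 FPKM, came last. In sgRFX6 the first 5 genes were the same, with overlapping neighbours throughout and HMGA2 lowest of them at 7.49 FPKM. There IGF2 had a mean of 0.779 FPKM and GPC3 0.456, with overlapping ranges that were apart in sgControl, while the others had means of 0.0399 (LIN28B) and 0.0143 FPKM (DLK1). The order within the first 5 depends on which transcript length is used. With all annotated exons of HMGA2 counted, its level in sgControl was 2.90 FPKM.

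**Figure D2:**
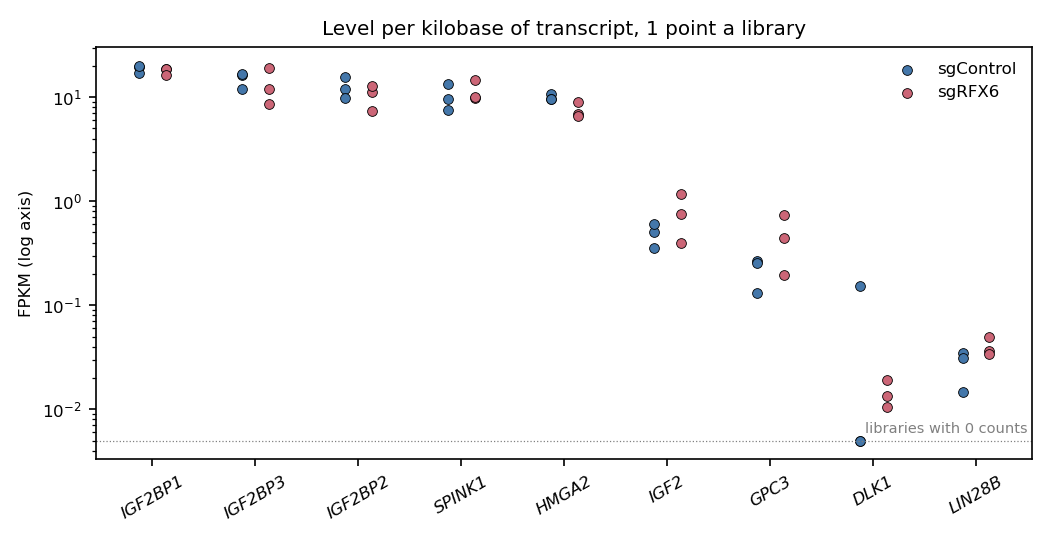
Level per kilobase of the principal transcript (FPKM, log axis) of the 9 measured genes, with 1 point for each sgControl (blue) and sgRFX6 (red) library. IGF2BP1, IGF2BP3, IGF2BP2, SPINK1 and HMGA2 form an upper band, IGF2 and GPC3 a lower one, and the sgControl libraries of DLK1 with 0 counts are drawn on the dotted line.

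Among the RNA-binding proteins, IGF2BP1 (chr17:48997412-49055650, GRCh38) was the most even gene. It had 160, 142 and 166 CPM in the sgControl libraries against 154, 155 and 135 CPM in the sgRFX6 libraries. The groups overlapped and the means differed by less than the SD of either group. The log2 fold change was -0.08 (SE 0.16, 95% interval -0.43 to 0.28, adjusted p = 0.892, edgeR), an interval that corresponds to between 0.741 and 1.21 times the sgControl level. This was the narrowest interval of the 7 genes.

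IGF2BP2 (chr3:185643739-185825056) had 44.6, 57.0 and 36.1 CPM in sgControl against 41.6, 27.2 and 46.9 CPM in sgRFX6. Only the second sgRFX6 library lay below all sgControl libraries, and the log2 fold change was -0.25 (SE 0.26, 95% interval -0.85 to 0.35, adjusted p = 0.746, edgeR). IGF2BP3 (chr7:23310209-23470467) had 68.9, 71.0 and 50.6 CPM in sgControl against 51.4, 36.6 and 81.4 CPM in sgRFX6. The sgRFX6 libraries held both its lowest and its highest value, the highest being in the third library, which stood apart by GC content. Its log2 fold change was -0.17 (SE 0.29, 95% interval -0.83 to 0.49, adjusted p = 0.868, edgeR) and became 0.06 without the second sgRFX6 library. Around IGF2BP3, the median over the 50 nearest tested genes was 0.42 on the log2 scale, above its own estimate.

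HMGA2 (chr12:65824131-65966295), an architectural factor that bends AT-rich DNA, had the smallest adjusted p of the 7 genes, above the threshold. It had 48.0, 43.1 and 43.0 CPM in the sgControl libraries (mean 44.7 ± 2.86, SD, n = 3) and 30.7, 29.7 and 40.2 CPM in the sgRFX6 libraries (mean 33.5 ± 5.79, SD, n = 3). All sgRFX6 values were below all sgControl values, as for 11.2% of all tested genes, and the third sgRFX6 library came closest to the controls. The fold was 0.751 (95% interval 0.55 to 1.03), or -0.41 on the log2 scale with an SE of 0.20. The adjusted p was 0.373 with edgeR and 0.415 to 0.674 when any library other than the third sgRFX6 library was left out. It was 0.079 without the third sgRFX6 library, 0.097 with the GC trend of each library removed, and 0.00524 with the weighted limma-voom fit. The two-sided exact permutation p was 0.1, the smallest that 3 against 3 libraries can give. The estimate was negative under every alternative tried, from -0.65 to -0.33. The median over the 50 nearest tested genes was 0.23 on the log2 scale, and with it removed the adjusted p of HMGA2 was 0.161.

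LIN28B (chr6:104936616-105083332), the gene upstream of let-7, was barely detected. It had 4, 2 and 4 counts in sgControl against 4, 3 and 6 counts in sgRFX6, close to the floor of 3 counts in every library, and no difference was detectable at this depth.

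**Figure D3:**
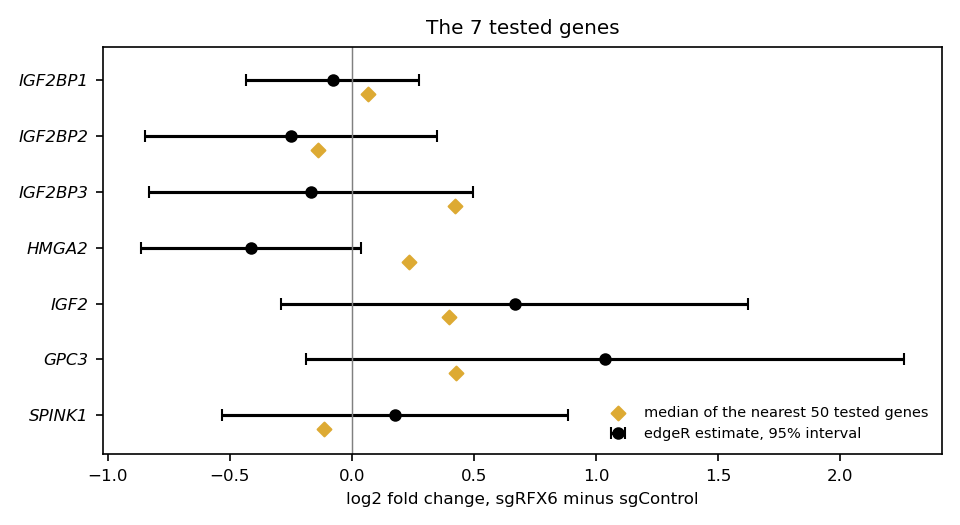
Log2 fold change (sgRFX6 minus sgControl, x axis) of the 7 tested oncofetal genes with the 95% interval of the edgeR fit (black), and the median of the 50 nearest tested genes on the same chromosome (gold). All 7 intervals hold 0, the narrowest is that of IGF2BP1 and the widest that of GPC3.

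The measured imprinted growth genes, IGF2 and DLK1, were low. IGF2 (chr11:2129112-2149603), an insulin-like growth factor, had 58, 84 and 46 counts in sgControl against 45, 105 and 93 counts in sgRFX6. In CPM these were 2.79, 3.40 and 1.98 against 2.23, 6.60 and 4.22. The other sgRFX6 libraries were above the controls and the first was within their range. The log2 fold change was 0.67 (SE 0.42, 95% interval -0.29 to 1.62, adjusted p = 0.523, edgeR), and its neighbourhood had a median of 0.40. The estimate was 0.25 without the second sgRFX6 library, 0.98 without the first and 0.27 with the neighbourhood median removed. IGF2 overlaps the read-through gene INS-IGF2, which had 6, 3 and 7 counts in sgControl against 0, 2 and 0 in sgRFX6. Since the use of strand in the counting is not given in the sources used here, antisense reads at this locus cannot be separated either.

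DLK1 (chr14:100725705-100738224), a transmembrane protein of fetal hepatoblasts, had 0, 18 and 0 counts in sgControl against 1, 1 and 2 counts in sgRFX6. The second sgControl library alone carried 18 of the 22 counts of this gene. All other libraries were at or under the floor of 3 counts, and no fold change is given.

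GPC3 (chrX:133535745-133985895), the cell-surface proteoglycan used as an HCC antigen, had 7, 17 and 15 counts in sgControl against 10, 30 and 25 counts in sgRFX6. In CPM these were 0.337, 0.688 and 0.647 against 0.496, 1.88 and 1.14, so that the first library of each group was lowest and the groups overlapped. The log2 fold change of 1.04 was the largest of the 7 with edgeR and the least precise (SE 0.54, 95% interval -0.19 to 2.26, adjusted p = 0.417, edgeR). The interval runs from 0.877 to 4.79 times the sgControl level, a range that these low counts could not narrow. It was 0.54 without the second sgRFX6 library and 1.41 without the first. The weighted limma-voom fit gave 0.26, below its 0.34 for IGF2. The neighbourhood of GPC3 had a median of 0.43.

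SPINK1 (chr5:147824568-147831786) had 4.05, 7.29 and 5.22 CPM in sgControl against 5.36, 7.98 and 5.45 CPM in sgRFX6. All 3 sgRFX6 values lay above the lowest control and 1 above the highest. The log2 fold change was 0.18 (SE 0.31, 95% interval -0.53 to 0.89, adjusted p = 0.870, edgeR), and it was -0.03 without the second sgRFX6 library. SPINK1 is the shortest transcript of the set, so its few counts give a level per kilobase close to that of HMGA2.

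**Figure D4:**
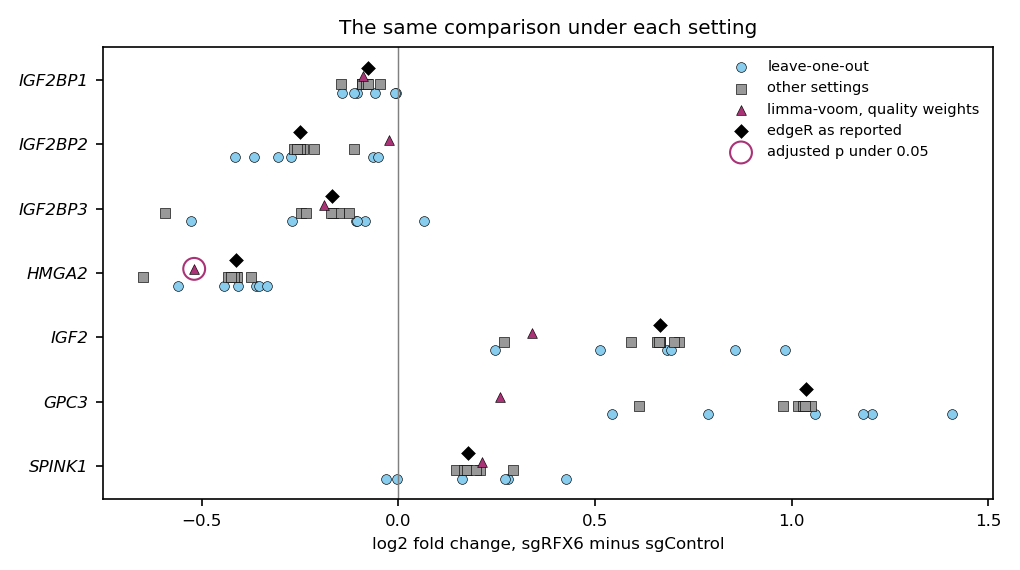
Log2 fold change of the 7 tested genes with edgeR as reported (diamonds), with 1 library left out (circles), with limma-voom and sample quality weights (triangles) and with the other settings (squares). The circle marks HMGA2 with limma-voom, which had an adjusted p under 0.05. HMGA2 stays below 0 throughout, while IGF2BP3 and SPINK1 cross 0 when single libraries are left out.

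The other genes of the pathways around these members were described by fixed lists. Their counts stand beside the shares over all genes, which were 3.74% with edgeR and 15.6% at an unadjusted edgeR p under 0.05. The shares were 6.44% with DESeq2 and 31.1% with limma-voom. Of 15 tested let-7 targets outside the set, 2 fell and none rose, and the median log2 fold change was -0.17. MYCN, a transcription factor of fetal progenitors and neuroblastoma, had 147, 194 and 195 counts in sgControl against 14, 22 and 17 in sgRFX6, with a log2 fold change of -3.05 (SE 0.34, adjusted p = 0.00261, edgeR). TRIM71, the LIN-41 ubiquitin ligase, had 239, 214 and 286 counts against 63, 35 and 80, with a log2 fold change of -1.85 (SE 0.29, adjusted p = 0.0104, edgeR). The TRIM71 call was lost without the third sgControl library (adjusted p = 0.0687) or the first sgRFX6 library (adjusted p = 0.0539). TRIM71 held 6 seed matches in its 3′UTR and MYCN none, and 9 of the 14 list genes with an annotated 3′UTR held at least 1. Reads of MYCN and of its antisense gene MYCNOS cannot be told apart without knowing the use of strand.

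Over the 12100 tested genes with an annotated 3′UTR, the median log2 fold change was not lower with a seed match than without. The median log2 fold change was 0.02 for the 10919 genes without a match, 0.03 for the 1047 genes with 1 match and 0.08 for the 134 genes with more. The share called was 3.71%, 3.82% and 4.48% in that order. By direction, 212 genes were called higher and 193 lower without a match. With 1 match these were 14 and 26, and with more matches 4 and 2. Of the 8 tested genes of LIN28 and let-7 processing, none passed the edgeR threshold and none had an unadjusted p under 0.05, and the smallest adjusted p belonged to the export factor XPO5 (log2 fold change -0.25, adjusted p = 0.571). AGO2, the slicer Argonaute, followed with -0.32 (adjusted p = 0.625). DESeq2 called 0 of these 8 and limma-voom 4. LIN28A was at or under 3 counts in all libraries.

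Of 10 tested genes of the IGF axis, 2 rose and 1 fell, and all 3 encode secreted binding proteins of the insulin-like growth factors. IGFBP3, the main carrier of these factors in serum, had 101, 125 and 84 counts in sgControl against 759, 355 and 685 in sgRFX6 (log2 fold change 2.75, SE 0.28, adjusted p = 0.00177, edgeR). IGFBP1, made by the liver, had 78, 93 and 88 counts against 324, 254 and 260 (log2 fold change 1.95, SE 0.25, adjusted p = 0.00367). IGFBP5 had 101, 257 and 62 counts against 2, 1 and 0, and the ratio of the summed counts, scaled to depth, was 119 (95% exact counting interval 40.3 to 577) in favour of sgControl. The calls of these 3 genes held in every alternative. IGFBP1 and IGFBP3 lie next to each other on chromosome 7, in a neighbourhood with a median of 0.48. No receptor or insulin receptor substrate of the list passed with edgeR, while limma-voom called 2 receptors in addition.

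In the list of imprinted neighbours of IGF2, H19 and DLK1, 4 genes were tested and none passed the edgeR threshold, with 2 at an unadjusted p under 0.05. All 4 estimates were positive with a median of 0.66, and PHLDA2, a placental growth repressor, was highest at 0.87 (SE 0.24, adjusted p = 0.0902). PHLDA2 alone passed with DESeq2 (adjusted p = 0.0240), and limma-voom called 2 of the 4 (PHLDA2 at an adjusted p of 9.8e-05). SLC22A18 came next at 0.54 (adjusted p = 0.248). All 4 lie on chromosome 11, as does IGF2, whose neighbourhood median was 0.40.

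Of 12 tested glypican and heparan sulfate genes, 1 rose and 1 fell, with a median of 0.04. DESeq2 called 3 of 14 and limma-voom 3 of 12, the additional gene being EXT2 (0.60, edgeR adjusted p = 0.0900). SULF2, a secreted sulfatase that trims heparan sulfate, had 293, 612 and 356 counts in sgControl against 1210, 921 and 1028 in sgRFX6 (log2 fold change 1.60, SE 0.26, adjusted p = 0.0120, edgeR). Its call was lost without the third sgControl library (adjusted p = 0.0679) or the first sgRFX6 library (adjusted p = 0.0585). NOTUM, a secreted carboxylesterase that inactivates Wnt proteins and was first described as a releaser of glypicans, had 513, 1372 and 743 counts against 101, 43 and 72 (log2 fold change -3.35, SE 0.39, adjusted p = 0.00279). The m6A machinery was even, with 0 of 13 genes past either threshold of edgeR and a median of -0.08, and DESeq2 called 0 and limma-voom 2. METTL3, its methyltransferase, had -0.30 (adjusted p = 0.552) and the demethylase FTO -0.28 (adjusted p = 0.604).

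The high mobility group genes, the wider class to which HMGA2 is assigned, had 0 of 9 past either threshold of edgeR and a median of -0.04, and DESeq2 called 0 and limma-voom 1. HMGN2 had the smallest adjusted p (log2 fold change 0.26, adjusted p = 0.604), followed by HMGN5 (0.98, adjusted p = 0.609). Of the 5 tested partners and relatives of SPINK1, none passed with edgeR and 1 had an unadjusted p under 0.05, while DESeq2 called 1 and limma-voom 3. SPINT2, a membrane-bound serine protease inhibitor, had a log2 fold change of 1.36 (SE 0.37, adjusted p = 0.0922) and EGFR, to which SPINK1 can bind, 0.39 (adjusted p = 0.342). Among 11 tested regulators of fetal and imprinted genes, none passed with edgeR, DESeq2 or limma-voom and 1 had an unadjusted edgeR p under 0.05. DNMT3A, a DNA methyltransferase, had -0.73 (adjusted p = 0.231) and the fetal gene repressor ZHX2 -0.45 (adjusted p = 0.436).

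Other oncofetal genes outside the set moved in both directions, with 4 of 9 tested higher, 1 lower and a median of 0.50. The carcinoembryonic antigen CEACAM5 had 11, 13 and 22 counts in sgControl against 354, 156 and 388 in sgRFX6 (log2 fold change 4.48, SE 0.39, adjusted p = 0.00107, edgeR). Its paralog CEACAM6, with which reads may be shared, had 1830, 1141 and 2093 counts against 13087, 9674 and 20527 (log2 fold change 3.29, SE 0.31, adjusted p = 0.00123). The growth factor midkine, MDK, had 9928, 15164 and 12682 counts against 23698, 20364 and 19630 (log2 fold change 1.03, SE 0.20, adjusted p = 0.0257), and the imprinted gene MEST had 141, 155 and 156 against 292, 177 and 382 (1.12, SE 0.25, adjusted p = 0.0439). The stem cell factor SALL4 had 15, 41 and 16 counts against 2, 2 and 5 (-2.70, SE 0.59, adjusted p = 0.0407). With 1 library left out, the adjusted p of SALL4 was 0.0550 to 0.168 and never passed. MDK lost its call in 5 of these 6 fits (up to 0.118), all but the one without the third sgRFX6 library. MEST lost it without any 1 of the sgControl libraries or the first sgRFX6 library (up to 0.186). With the median of the 50 nearest genes removed, neither MDK (adjusted p = 0.111) nor MEST (adjusted p = 0.190) passed. MEST also failed with library size alone as scaling (adjusted p = 0.0671) and with the replicate number as a block (adjusted p = 0.0558). DESeq2 called 5 of the 9 genes and limma-voom 8.

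**Figure D5:**
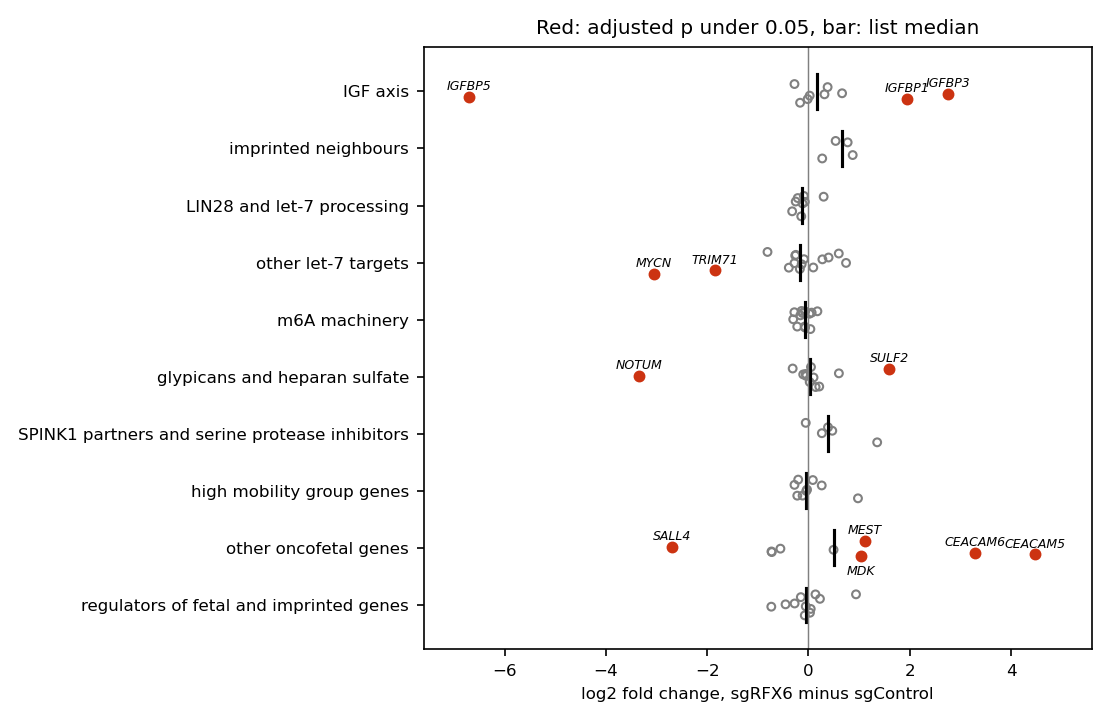
Log2 fold change (sgRFX6 minus sgControl, x axis) of the tested genes of 10 lists, with genes at an adjusted p under 0.05 in red and named, other genes as open circles and the list median as a bar. Named genes are 4 higher and 1 lower of 9 other oncofetal genes, and 2 higher and 1 lower of 10 genes of the IGF axis. They are 2 lower of 15 other let-7 targets, and 1 higher and 1 lower of 12 glypican and heparan sulfate genes. The remaining lists hold none. The fitted value of IGFBP5 rests on 3 counts in sgRFX6.

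Markers of the labelled cell type were uneven. ALB, SERPINA1, APOB and FGB were detected in all libraries, whereas TTR and APOA1 were low, as given above. The sgControl means were 66.6 CPM for APOB, 26.4 for FGB, 20.2 for ALB and 9.14 for SERPINA1. The biliary keratin KRT19 was at 736 CPM in sgControl against 592 CPM in sgRFX6. The other biliary markers were SPP1 at 110 against 92.9 CPM, KRT7 at 9.03 against 2.80 and SOX9 at 4.11 against 6.82. Of the 6 hepatocyte markers 1 was called, FGB at a log2 fold change of -2.45 (adjusted p = 0.00417), and their summed level was 108 to 140 CPM in sgControl against 53.3 to 90.8 CPM in sgRFX6. APOB, which had 1586, 1495 and 1454 counts against 389, 253 and 1015 (-1.29, adjusted p = 0.116), was the other hepatocyte marker with a negative estimate. The other 4 estimates were positive (0.12 to 0.74), with overlapping groups and adjusted p of 0.548 to 0.928 (edgeR). The list median was 0.12. With 1 library left out, the lowest estimates of ALB and SERPINA1 were -0.09 and -0.06. DESeq2 called 2 of the 6 and limma-voom 4. Of 4 tested fibroblast markers 2 were called lower, COL1A1 (-2.08, adjusted p = 0.0108) and COL1A2 (-3.71, adjusted p = 0.00276). The COL1A1 call was lost without the third sgControl library (adjusted p = 0.0558) or the first sgRFX6 library (adjusted p = 0.0650). The summed fibroblast level was 24.5 to 33.1 CPM in sgControl against 21.3 to 56.2 CPM in sgRFX6. LUM had 1205 counts in the third sgRFX6 library and 327 to 616 in the others (0.63, adjusted p = 0.530). None of the biliary, endothelial and leukocyte markers was called by edgeR, their counts at an unadjusted p under 0.05 being 1 of 4, 0 of 1 and 1 of 3, with DESeq2 calls of 1, 0 and 1 and limma-voom calls of 2, 1 and 1. The endothelial marker KDR and the T cell marker CD3E had at most 1 count in any library. The part of these markers in the results above was not tested. In bulk RNA, fewer cells that express a gene and less of its RNA per cell cannot be told apart.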

How the data were processed

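RNA was sequenced in 6 libraries labelled Hep3B, 3 sgControl and 3 sgRFX6. Total RNA was taken up in Trizol and cDNA was read on an Illumina machine. The authors deposited raw counts per gene, in 16721 rows. The submitters' processing notes name GRCh38 and hg38, and the aligner, counting program and annotation are not given in the sources used here. The 1 unnamed row, at 9.17e-05% of a library or less, was left out. Members and lists were chosen with earlier results of these data known. The genes named are the 10 members, RFX6 and, in each list, every gene called or else the 2 with the smallest adjusted p. Genes used to check cell type, MYCNOS, INS-IGF2, LIN28A and EXT2 were named outside this rule, after their values were seen.

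Counts were kept by filterByExpr of edgeR 4.0.16 in R 4.3.3 (minimum count 10, minimum total 15), scaled by TMM and compared with the quasi-likelihood test over all 6 libraries without covariates. The Benjamini-Hochberg adjustment ran over 12839 genes, and genes under 0.05 were called. The dispersion corresponded to a common biological variation of 0.269. Standard errors came from the F statistic and intervals from its degrees of freedom. Positions, lengths and 3′UTRs came from GENCODE release 29 on GRCh38, matching 15422 row names directly and 260 by another symbol, and miRNAs from RefSeq. FPKM were computed from the counts with the principal transcript. Like length means 0.8 to 1.2 times the 3′UTR of the gene. The alternatives were DESeq2 1.42.0, limma-voom (limma 3.58.1) with sample quality weights, scaling by RLE or by library size alone, no filter, at least 20 counts in 3 libraries, the replicate number as a block, a GC trend (span 0.3) or the median of the 50 nearest genes removed, and each library left out. Intervals of counts cover counting error only, since PCR reads are not independent molecules.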

Additional observations from a re-analysis of the deposited data

How the results depend on the processing

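The number of genes called was 480, and it became 908 with DESeq2 (53.5% of them higher), 3998 with limma-voom and sample quality weights (58.3% of them higher), 1529 with the GC trend removed, and 212 to 718 with 1 library left out. It was lowest at 212 (40.1% of them higher) without the third sgControl library, 216 without the first sgRFX6 library, 306 (38.2% higher) without the first sgControl library and 307 without the second sgRFX6 library. The number of oncofetal genes called was 0 under each of the 15 alternatives except limma-voom, which gave 1 (HMGA2). Among the oncofetal genes and those named by rule from the fixed lists, EGFR turned sign with the regional correction (-0.12). With 1 library left out, the log2 fold change of IGF2BP3 was -0.53 to 0.0645, positive without sgRFX6 replicate 2. That of SPINK1 was -0.0309 to 0.43, lowest without sgRFX6 replicate 2 and -0.0024 without sgControl replicate 1. HMGN5 ran from -0.39 without sgRFX6 replicate 3 to 1.43. Cell type markers also turned sign with 1 library left out. These were ALB (-0.09 to 0.63), SERPINA1 (-0.06 to 0.25), LUM (-0.03 to 0.88), CD68 (-0.50 to 0.11) and PTPRC (-0.70 to 0.27). None of the genes that turned sign passed the threshold in these fits, and the cause was not tested. No pairing of the libraries by replicate number was seen, and shared culture or preparation was not tested. Deviations of same-numbered libraries correlated at -0.41 to 0.17, and 0 of 6 libraries correlated best with their own number. The correlation was 0.57 for sgControl 1 with sgRFX6 3, 0.44 for sgControl 2 with sgRFX6 1 and 0.28 for sgControl 3 with sgRFX6 2. With the replicate number as a block, 648 genes were called, 322 higher and 326 lower, and no oncofetal gene. The counts limit LIN28B and DLK1, which had values only with DESeq2 or without a filter, and GPC3, which has no value with at least 20 counts in 3 libraries.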
